A study of Mus musculus with 6 samples.

Results

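The lysosomal transcripts described here are 35 genes of hydrolases, lipid carriers and membrane proteins of the lysosome, found by gene name in a liver RNA sequencing table of 30889 genes, and each name matched a single row. Mice were dosed by mouth for 14 days, according to the sample titles. The control group (3 libraries) received phosphate buffered saline and the extract group (3 libraries) received a water extract of the herb Emilia sonchifolia. Strain, age, sex, dose and genotype are not given in the labels used here. Whether the 3 libraries of a group come from 3 mice is not stated either, and the p-values cover only the variation seen among these libraries, which may be technical. All 35 genes carry the lysosome term in the pathway column of the deposited table, and all 35 passed the filter on low counts. RNA came from whole liver, so a lower level of a transcript can stand for fewer cells of a type or for less RNA per cell, and these cannot be told apart.

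Lysosomes are the acidic compartments in which cells degrade proteins, glycans, lipids and nucleic acids taken up from outside or delivered by autophagy. Most of their enzymes are made in the endoplasmic reticulum, tagged with mannose 6-phosphate and sorted from the Golgi, and a proton pump, the V-ATPase, keeps the compartment acid. Many of these genes share a promoter element, the CLEAR element, which the transcription factor TFEB binds. In liver, hepatocytes hold most of the mass, while Kupffer cells, the resident macrophages, are rich in lysosomes. Cathepsin S and CD68 are mainly products of macrophages and related cells, whereas LAMP1, cathepsin D or prosaposin are made by nearly all cells.

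The promoters show which members carry the core of the CLEAR element, the 8 letters TCACGTGA, which reads the same on both strands and holds the shorter E-box CACGTG within it. RefSeq promoters (GRCm38.p6, 250 bases before to 50 after the start) were at hand for 31 of the 35 members. TCACGTGA was in 4 of the 31 (12.9%) and in 1.12% of all 27025 genes with such a promoter. CACGTG was in 10 of the 31 (32.3%) against 8.09% of all genes. The windows below lie before the RefSeq start of each gene, which is inside the span the deposited table gives for all 4. The windows of Ctsd and Ctsa lie wholly within that span, that of Mcoln1 partly and that of Gla outside it. They are written 5′ to 3′ on the gene's strand, with TCACGTGA in capitals. They are shown because these 4 genes hold the full core, and of them Ctsd alone passed the test described further on. Ctsa holds another copy just after its start and Mcoln1 another CACGTG, in lower case at the left end of its window.

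Ctsd, minus strand, chr7:142387893-142387952: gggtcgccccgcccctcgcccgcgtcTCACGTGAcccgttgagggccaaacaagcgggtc
Ctsa, plus strand, chr2:164833713-164833772: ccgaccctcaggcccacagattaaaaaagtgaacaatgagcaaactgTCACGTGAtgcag
Gla, minus strand, chrX:134601184-134601243: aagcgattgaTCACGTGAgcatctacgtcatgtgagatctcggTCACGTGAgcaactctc
Mcoln1, plus strand, chr8:3500447-3500506: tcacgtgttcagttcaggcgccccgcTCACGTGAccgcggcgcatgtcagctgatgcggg

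Ctss and Cd68, the macrophage-rich members, had no CACGTG in their promoters. Both held GAGGAA, the PU box that macrophage factors of the PU.1 kind recognise, searched on both strands after the values had been seen. That short motif was in 14 of the 31 members (45.2%) and in 31.3% of all genes, so its presence is common. It is in capitals here, on the gene's strand, as a contrast to the 4 windows above.

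Ctss, plus strand, chr3:95526595-95526654: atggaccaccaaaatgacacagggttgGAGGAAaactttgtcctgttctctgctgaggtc
Cd68, minus strand, chr11:69666361-69666420: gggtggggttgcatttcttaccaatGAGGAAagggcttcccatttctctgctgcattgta

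A match of letters is a description of the sequence and not a bound site. The 10 members with CACGTG were Arsa, Ctsa, Ctsd, Ctsl, Gaa, Gla, Glb1, Lamp1, Mcoln1 and Sgsh. In the comparison of extract with control, 1 of these 10 was higher (Ctsd), 1 was lower (Arsa) and 8 did not pass the test. Lamp1 held 4 copies of CACGTG, at -61, -45, -28 and -15 from the RefSeq start.

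Levels are given as FPKM, the authors' fragment count scaled by transcript length and library size, which allows genes to be compared per length. The mean over the 6 libraries ran from 1.3 FPKM (Gla and Idua) to 187 FPKM (Lamp1), with a median of 14.0. Lamp1, Psap, Ctsz and Ctsd were above 100 FPKM, and 8 members were below 5 FPKM. The cathepsins and the abundant membrane proteins stood at the top of this order, and Gla, Cd63 and several enzymes of glycosaminoglycan breakdown (Idua, Sgsh, Ids and Arsb) stood at the bottom. Summed over the 35 genes, the control libraries held 1324, 1313 and 1275 FPKM and the extract libraries 1249, 1251 and 1234 FPKM. Their difference of -59.2 FPKM depends on the scaling and was -16.0 FPKM after division by TMM factors, the library factors used in the test.

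**Figure D1:**
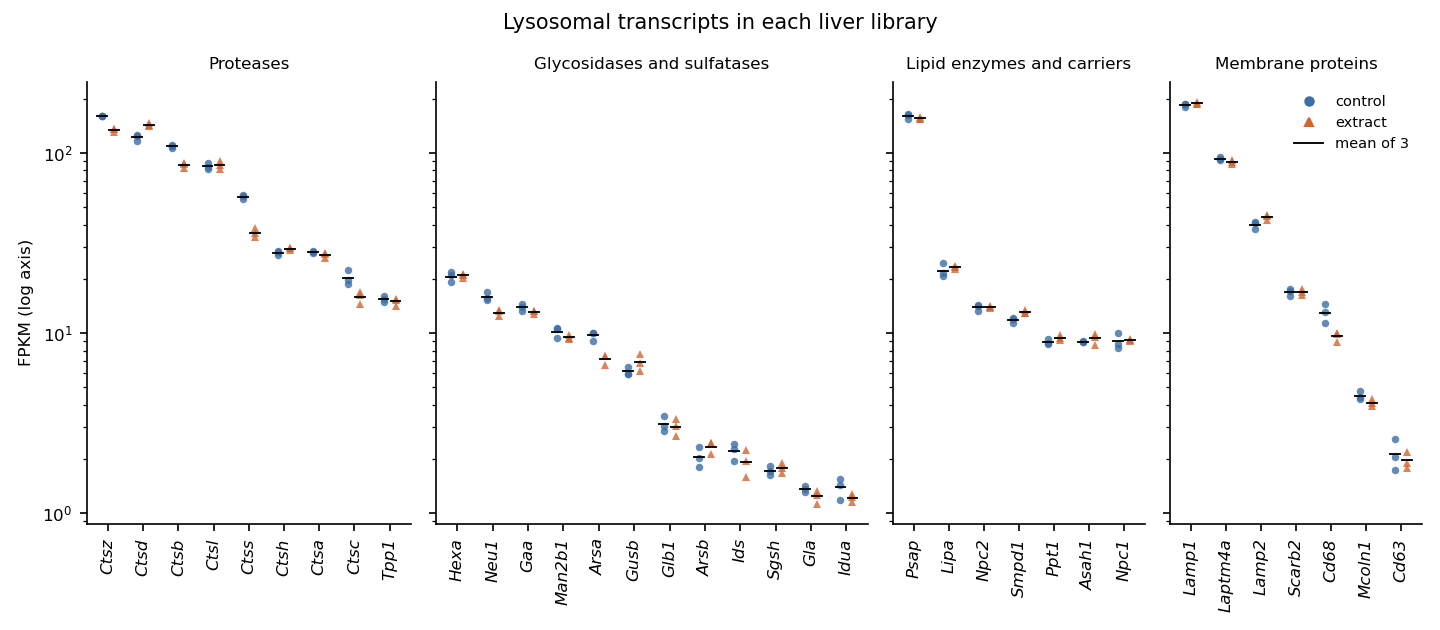
FPKM on a log axis of the 35 lysosomal genes in each library, split by role and ordered by mean, with control libraries as circles, extract libraries as triangles and bars at the means of 3. Most pairs of groups lie side by side, while Ctss stands at 57.2 FPKM in control and 36.0 FPKM in extract.

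The comparison of extract with control asks which lysosomal transcripts differ between treated and untreated liver. With the extract, 4 of the 35 members were higher (Ctsd, Smpd1, Lamp2 and Ctsh) and 7 were lower (Ctss, Cd68, Arsa, Ctsc, Ctsb, Neu1 and Ctsz), by edgeR's quasi-likelihood test on the estimated counts with an adjusted p under 0.05 over all 18071 genes tested. The 11 called members are 31.4% of the list. Among all genes tested 26.9% were called, 14.2% higher and 12.8% lower. Of the genes with a mean at least as high as the lowest member, 37.8% were called. The members' share lies between these backgrounds and is not a result about the list as a whole. With a library left out, the members called higher ran from 2 (without extract 1 or extract 2) to 7 (without control 1) and those called lower from 4 (without extract 1 or extract 3) to 7. With limma on log2(FPKM + 0.5) 2 were higher and 7 lower, and over all genes the share of calls that were higher was 41.3%, against 52.6% in the edgeR test. Changes were small: the log2 fold changes ran from -0.61 to 0.28, and the median of 0.02 lay beside -0.02 over all genes tested. Normalized counts of the groups did not overlap for 14 of the 35 members, against 44.7% of all genes. FPKM fold changes ran lower than those of normalized counts by a median of 0.06 on the log2 scale, for the members and for all genes alike, so a member with equal counts has a slightly lower FPKM in the extract group.

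**Figure D2:**
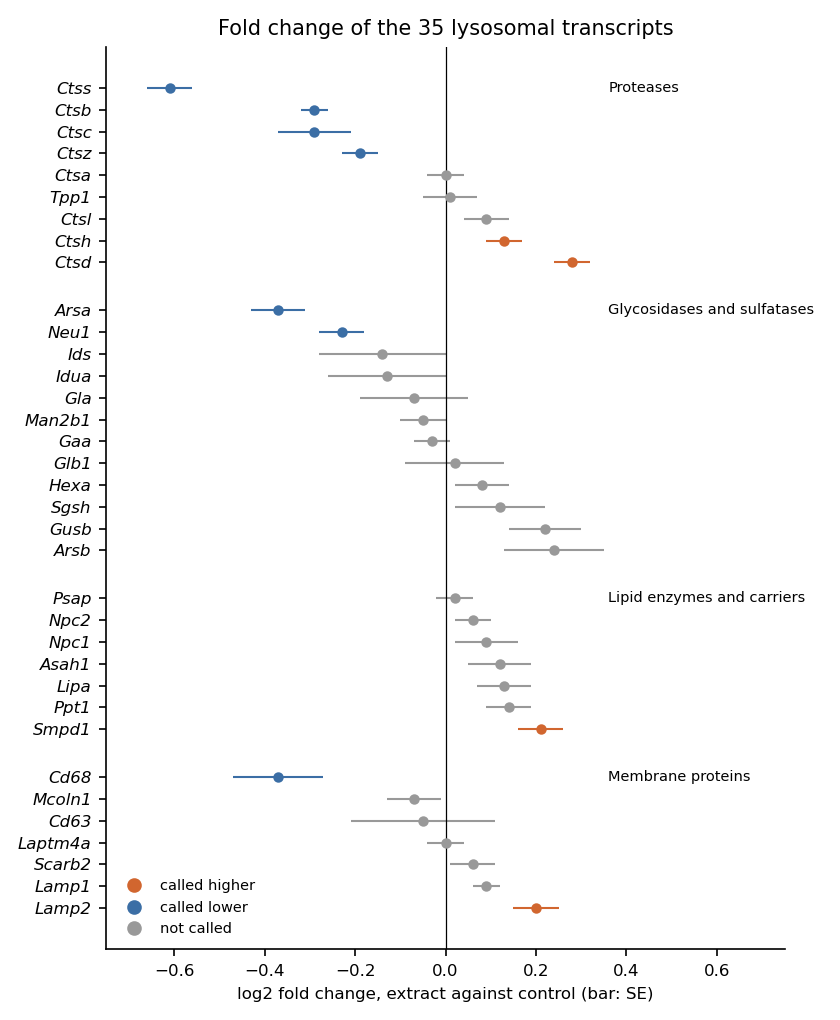
Log2 fold change of each lysosomal gene with its standard error as a bar, extract against control, grouped by role. Points of called genes are coloured, from Ctss at -0.61 to Ctsd at 0.28, and the 24 grey points were not called.

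Ctss, the cysteine protease that trims the invariant chain of MHC class II in antigen-presenting cells (ENSMUSG00000038642, chromosome 3 of GRCm38, 95526786 to 95556403), changed more than any other member in size. It was at 57.6, 55.3 and 58.7 FPKM in the control libraries and in the extract libraries at 38.1, 35.8 and 34.2 FPKM. All 3 extract libraries lay below every control library. The log2 fold change was -0.61 ± 0.05 (SE, with an edgeR adjusted p = 0.000184), a change of -34.3% on the count scale. Cd68, a heavily glycosylated protein of macrophage endosomes and lysosomes (ENSMUSG00000018774, chromosome 11, 69664213 to 69666153), was at 14.5, 13.1 and 11.4 FPKM in control and at 9.98, 8.98 and 9.91 FPKM in extract. The groups did not overlap, but the control libraries spread more widely than those of Ctss. Its log2 fold change was -0.37 ± 0.10 (SE, with an edgeR adjusted p = 0.0266). The call was lost without control 1 (adjusted p = 0.0665), control 2 (0.0817), extract 1 (0.0714), extract 2 (0.107) or extract 3 (0.0535), each time with fewer libraries in the fit.

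Of the 9 proteases, Ctss included, 2 were higher and 4 were lower by edgeR (66.7% called). Among all genes tested 26.9% were called, and 37.8% of those at or above the level of the lowest member. The share of the proteases was not tested, and the class was chosen with earlier results of these data known. The proteases other than Ctss moved in both directions. Ctsb, an abundant cysteine cathepsin of hepatocytes and macrophages (ENSMUSG00000021939, chromosome 14, 63122462 to 63145923), was at 109, 111 and 107 FPKM in control and at 86.4, 87.9 and 82.9 FPKM in extract, again with no overlap. Its log2 fold change was -0.29 ± 0.03 (SE, with an edgeR adjusted p = 0.000683). In GENCODE M21, 12.8% of its exonic bases are shared with Fdft1 on the opposite strand, and without a stated use of strand the reads there cannot be told apart. Fdft1, an enzyme of cholesterol synthesis, rose, with a log2 fold change of 1.18 ± 0.06 (edgeR adjusted p = 1.44e-05), the direction opposite to Ctsb. Ctsc, which activates granule proteases of leukocytes, was at 18.8, 19.8 and 22.4 FPKM in control and at 16.3, 17 and 14.5 FPKM in extract. Its log2 fold change of -0.29 ± 0.08 (edgeR adjusted p = 0.0273) was lost without control 2 (0.0625) or any extract library (0.0905, 0.0564 and 0.0988 without extract 1, 2 and 3), and with no filter on low counts (0.0507). Ctsz, a carboxypeptidase and the most abundant of the cysteine cathepsins here, went from 161, 160.3 and 161 FPKM in control to 131, 136 and 136 FPKM in extract. This drop of 0.19 ± 0.04 on the log2 scale (edgeR adjusted p = 0.00725) was lost without extract 1 (0.0532).

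Ctsd, the main aspartic protease of lysosomes (ENSMUSG00000007891, chromosome 7, 142375911 to 142388038), went the other way, from 125, 126 and 117 FPKM in control to 146, 140.4 and 143 FPKM in extract. Every extract library was above every control library, with a log2 fold change of 0.28 ± 0.04 (SE, with an edgeR adjusted p = 0.00186). In GENCODE M21, 34.4% of its exonic bases are shared with Gm49369, an overlapping gene model on the same strand, so part of its reads may be assigned elsewhere. Ctsh, an aminopeptidase, was at 28.5, 28.2 and 27.2 FPKM in control and at 29.7, 29.8 and 28.8 FPKM in extract, a narrow separation. Its log2 fold change of 0.13 ± 0.04 (edgeR adjusted p = 0.0330) was lost without control 2 (0.0849) or without extract 1, 2 or 3 (0.0762, 0.0951 and 0.0785), and with upper-quartile factors (0.112), total counts only (0.118) or limma on FPKM (0.198). Ctsl, a cathepsin of most cells, was at 88.2, 83.7 and 81.2 FPKM in control and at 82.0, 85.7 and 90.7 FPKM in extract, and the groups overlapped (edgeR adjusted p = 0.252). Of its exonic bases, 26.8% are shared with Gm47123 on the opposite strand and Gm49230 on the same strand. Tpp1, a tripeptidyl peptidase, and Ctsa, the protective protein of Neu1 and Glb1, were not called either, with 95% intervals of the log2 fold change of -0.12 to 0.14 and -0.08 to 0.09. For Ctsa, 17.4% of exonic bases are shared with neighbours on the opposite strand.

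Within the 6 cysteine cathepsins (Ctsb, Ctsc, Ctsh, Ctsl, Ctss and Ctsz) the composition differed between groups. Ctss held 12.4%, 12% and 12.8% of their summed FPKM in the control libraries and 9.93%, 9.12% and 8.84% in the extract libraries. Ctsl went the other way, from 19.1%, 18.2% and 17.8% to 21.4%, 21.8% and 23.4%. The share of Ctsz, the largest, had a mean of 35% ± 0.192 (SD, n = 3) over the control libraries and of 34.7% ± 0.471 over the extract libraries. These shares are a description, since a fall of 1 member raises the share of the rest.

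Among the 12 glycosidases and sulfatases, 0 were higher and 2 were lower (16.7%), Arsa and Neu1, by edgeR's quasi-likelihood test. Over all genes tested 14.2% were higher and 12.8% lower, so these counts are not a result about the class. None of the 12 was called higher by DESeq2 or by limma on FPKM either, and 1 of those with a positive estimate, Gusb, had an unadjusted edgeR value under 0.05, at 0.0272. Arsa, arylsulfatase A, which removes sulfate from sulfatides (ENSMUSG00000022620, chromosome 15, 89472476 to 89477425), was at 9.99, 10 and 9.08 FPKM in control and at 7.51, 7.43 and 6.69 FPKM in extract. Its extract libraries all lay below the control libraries, with a log2 fold change of -0.37 ± 0.06 (SE, with an edgeR adjusted p = 0.00408). C230037L18Rik, on the opposite strand, covers 18.8% of its exonic bases, a share in which reads of the strands cannot be told apart. C230037L18Rik was far lower in level, at 0.293 ± 0.0677 FPKM in control and 0.139 ± 0.0757 FPKM in extract (SD, n = 3), and was not called, with a log2 fold change of -0.99 ± 0.45. Neu1, the lysosomal sialidase, went from 15.6, 16.9 and 15.3 FPKM in control to 13.4, 13.2 and 12.4 FPKM in extract. The groups did not overlap, and its log2 fold change of -0.23 ± 0.05 (edgeR adjusted p = 0.0108) was just lost without extract 3 (0.0508).

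The other 10 of this class were not called. Gusb, beta-glucuronidase, had a log2 fold change of 0.22 with a 95% interval of 0.03 to 0.41 (edgeR adjusted p = 0.0829). Without extract 3 it passed, at an adjusted p of 0.0444. Arsb, which acts on dermatan and chondroitin sulfate, was at 0.24 with an interval of -0.01 to 0.50, passed without control 1 (edgeR adjusted p = 0.0431) and shares 39.9% of its exonic bases with genes on the opposite strand. Hexa, the alpha chain of beta-hexosaminidase, had an interval of -0.05 to 0.21, Gaa, the enzyme of glycogen breakdown in lysosomes, -0.13 to 0.07, and Man2b1, an alpha-mannosidase, -0.17 to 0.08. For Gla, Glb1, Idua, Ids and Sgsh, with mean levels of 1.3 to 3.07 FPKM, the intervals were wider, from -0.46 at the lower end of Ids to 0.34 at the upper end of Sgsh. A drop as large as that of Ctsb, at -0.29, lay within the intervals of Gla, Idua and Ids, and a rise as large as that of Ctsd, at 0.28, within that of Sgsh. Sgsh shares 21.6% of its exonic bases with Card14 on the opposite strand.

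Of the 7 lipid enzymes and carriers, 1 was higher (14.3%) and 0 were lower by edgeR. Over all genes tested 14.2% were higher and 12.8% lower, so these counts are not a result about the class. Smpd1, acid sphingomyelinase (ENSMUSG00000037049, chromosome 7, 105554360 to 105558389), was at 12, 12.2 and 11.4 FPKM in control and at 13.5, 12.9 and 12.9 FPKM in extract. The 3 extract libraries were above the controls, and the log2 fold change was 0.21 ± 0.05 (SE, with an edgeR adjusted p = 0.0145). The call was lost with limma and no filter on low FPKM values (0.0640). Psap, the precursor of the saposins that help sphingolipid hydrolases, was at 164, 163 and 155 FPKM in control and at 159, 155 and 155 FPKM in extract. The Psap groups overlapped, and its 95% interval of the log2 fold change was -0.06 to 0.11. Ppt1, palmitoyl-protein thioesterase, was at 0.14 (edgeR adjusted p = 0.0756), Lipa, the acid lipase that frees cholesterol from its esters, at 0.13 (0.175), Asah1, acid ceramidase, at 0.12 (0.222), and the cholesterol carriers Npc1 and Npc2 at 0.09 (0.354) and 0.06 (0.319). Lipa and Npc1 passed without control 1 (edgeR adjusted p = 0.0144 and 0.0284). All 7 point estimates were above 0, from 0.02 to 0.21, but that of Psap was below 0 with upper-quartile factors, total counts only and FPKM as deposited. No lipid member was lower under DESeq2 or limma on FPKM.

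Of the 7 membrane proteins, Lamp2 was higher, Cd68 was lower and 5 did not pass. That is 14.3% in each direction, near the 14.2% higher and 12.8% lower over all genes tested. Lamp2, a major glycoprotein of the lysosomal membrane and the receptor of chaperone-mediated autophagy (ENSMUSG00000016534, chromosome X, 38401357 to 38456454), was at 40.9, 37.8 and 41.2 FPKM in control and at 44.7, 45.0 and 42.2 FPKM in extract. The groups did not overlap, with a log2 fold change of 0.20 ± 0.05 (SE, with an edgeR adjusted p = 0.0200). The call was lost without extract 1 (0.0608) or extract 2 (0.0770), and with limma on FPKM (0.0723). Lamp1, its close relative, was at 188, 186 and 179.5 FPKM in control and at 187, 193 and 187 FPKM in extract. Its FPKM values overlapped while its normalized counts did not, and the 95% interval of its log2 fold change was 0.01 to 0.17 (edgeR adjusted p = 0.0819). Of its exonic bases, 9.31% are shared with Grtp1 on the opposite strand. Laptm4a, a small membrane protein of late endosomes, was at 92.2, 95.1 and 90.9 FPKM in control and at 91.2, 89.1 and 87.2 FPKM in extract, with an interval of -0.08 to 0.09. Scarb2, the receptor that carries glucocerebrosidase to lysosomes, had an interval of -0.06 to 0.17 and Mcoln1, a calcium channel, of -0.20 to 0.06. Cd63, a tetraspanin of late endosomes, was low in these livers (2.13 and 1.97 FPKM), and its interval of -0.42 to 0.31 does not separate a change like that of Cd68 from none.

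**Figure D3:**
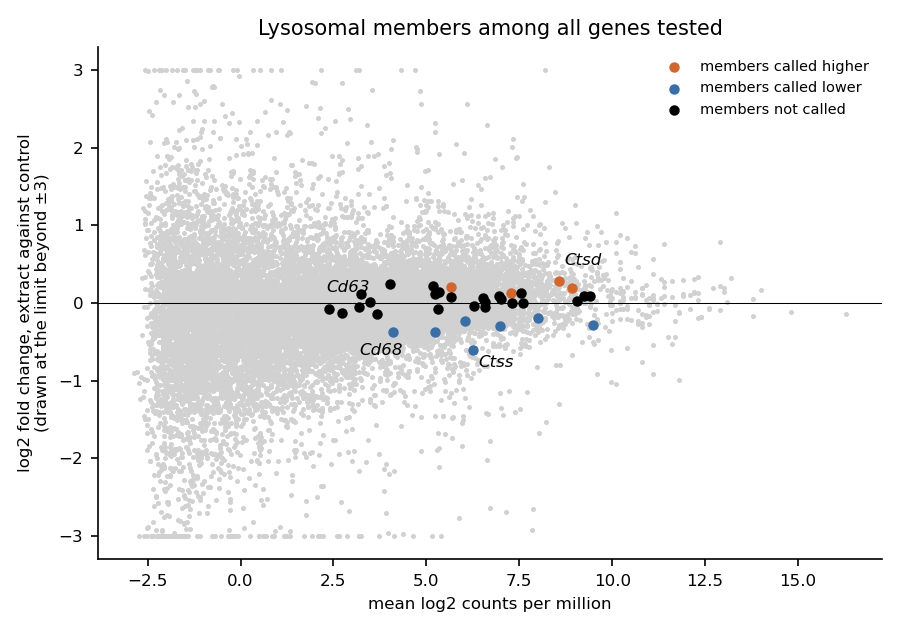
Mean log2 CPM, counts scaled to library size (x axis), against log2 fold change (y axis) for the 18071 genes tested in grey, with the lysosomal genes in colour or black and values past the axis drawn at its limit. The members lie between -0.61 and 0.28, inside the spread of genes of like abundance, with Ctss the lowest of them.

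The macrophage-rich members were set against related genes of all cells by ratios within each library, pairs chosen because both genes belong to the same protein family. The log2 ratio of Cd68 to Lamp1 FPKM was -3.70, -3.83 and -3.98 in control and -4.23, -4.42 and -4.24 in extract. It was thus lower in all 3 extract libraries, with a difference of -0.46 (SD 0.139 in control and 0.110 in extract, n = 3 each). The log2 ratio of Ctss to Ctsl FPKM was -0.62, -0.60 and -0.47 in control and -1.11, -1.26 and -1.40 in extract, a difference of -0.70 (SD 0.0808 and 0.150) with no overlap. Its size depends on the partner. Ctsl had a log2 fold change of 0.09, while the cathepsins Ctsb and Ctsz, not used as partners, were at -0.29 and -0.19. Each ratio had a two-sided exact permutation p of 0.10, also after adjustment over the 2 ratios, which is the smallest p that 3 against 3 libraries allow. The design therefore cannot reach 0.05 for a single ratio.

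Markers of Kupffer cells were lower in the same libraries. Of 15 such markers, 12 were called lower (80.0%, against 12.8% of all genes tested) and 3 did not pass. The median log2 fold change of the 15 was -0.62. Their summed FPKM ran from 559 to 589 in control and from 335 to 351 in extract. No marker of this list was at 0 in any library. Csf1r, the receptor for the growth factor of macrophages, dropped by 0.90 on the log2 scale, and the complement and scavenging genes Fcna, Vsig4, C1qa and C1qb by 0.89, 0.85, 0.79 and 0.73. Folr2, Cd163 and Slc40a1 did not pass, at -0.20, -0.02 and -0.02. Ctss, at -0.61, lay next to the median of these markers, and Cd68, at -0.37, above it.

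Relative to the mean log2 FPKM of the 15 markers, Ctss stood at 1.34, 1.28 and 1.4 in control and at 1.43, 1.35 and 1.24 in extract. These values overlapped, with group means of 1.34 and 1.34. Cd68 stood at -0.65, -0.79 and -0.97 in control and at -0.50, -0.64 and -0.55 in extract. All extract libraries were higher relative to the markers, but narrowly, with control 1 at -0.65 and extract 2 at -0.64. Lamp1 stood at 3.05, 3.03 and 3.01 in control and at 3.73, 3.78 and 3.69 in extract, higher in every extract library. The part of the Kupffer markers in the lower levels of Ctss, Cd68 or the other cathepsins was not tested. Without Ctss and Cd68, 4 of 33 members were higher (12.1%) and 5 were lower (15.2%). These shares are near the 14.2% and 12.8% of all genes tested.

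**Figure D4:**
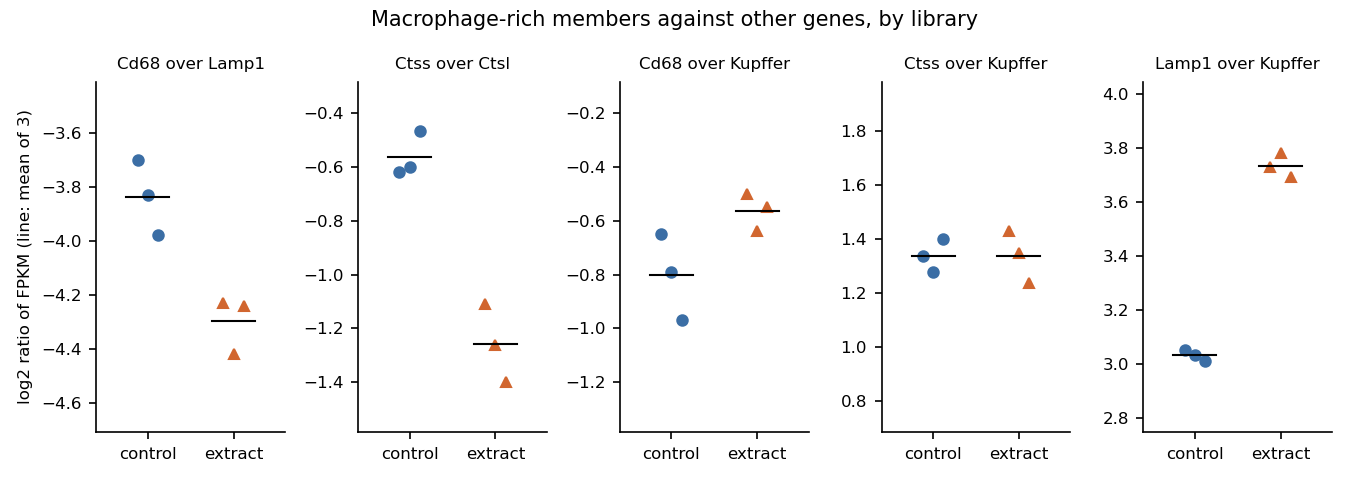
Log2 ratios of FPKM in each library, control as circles and extract as triangles with lines at the means of 3, and all panels span the same number of log2 units. Cd68 over Lamp1 and Ctss over Ctsl are lower in extract, while Ctss over the mean of 15 Kupffer markers has the mean 1.34 in both groups.

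Markers of other leukocytes and of red cells were lower as well. The counts below stand beside 12.8% lower and 14.2% higher over all genes tested. Of 11 monocyte and neutrophil markers, 8 were lower, with sums of 101 to 167 FPKM in control and 38.1 to 50.6 FPKM in extract. Ccr2 of this list was not called and had a positive log2 fold change, of 0.44 (edgeR adjusted p = 0.0593). Of 8 dendritic cell markers, 4 were lower, with sums of 159.8 to 184 FPKM and 71.9 to 76.7 FPKM. Cd74 and H2-Ab1 (25.2 FPKM in control and 11.1 FPKM in extract) made up most of both sums. Clec9a was the highest of the other dendritic markers, at 1.89 FPKM in control and 0.889 FPKM in extract. The sums therefore say little about those other markers. Cd74, the invariant chain that Ctss processes, went from 145 ± 8.44 to 62.7 ± 2.03 FPKM (SD, n = 3), a log2 fold change of -1.15 ± 0.05. Of 12 sinusoidal endothelial markers, 6 were lower, with sums of 80.9 to 89.2 FPKM and 67.9 to 71.4 FPKM. All 7 red cell markers were lower, with sums of 1272 to 1617 FPKM in control and 198 to 236 FPKM in extract and a median log2 fold change of -2.69, the lowest median of the marker lists. Of 8 B and plasma cell markers 6 were lower, with sums of 87.2 to 149 FPKM and 37.2 to 47 FPKM, and of 10 T and NK cell markers 4 were lower, with sums of 7.4 to 8.92 FPKM and 4.37 to 4.67 FPKM. Their part in the members' values was likewise not tested. The 11 hepatocyte markers were above 0 in every library, and 4 of them were higher and 5 lower. Of 10 stellate cell markers 2 were higher and 1 was lower, and of 7 cholangiocyte markers 1 was lower, Sox9. The shares called in these last 2 lists, 30.0% and 14.3%, lay near or below the 26.9% of all genes tested.

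The rest of the lysosome was read from lists chosen alongside the members. Of 60 other lysosomal genes, 59 were tested, 12 were higher and 11 were lower (39.0% called), with a median log2 fold change of 0.06. Among all genes tested 26.9% were called, and 37.8% of those at or above the level of the lowest member. The share is near the second of these and is not a result about the list. Tpcn1, a channel of endosomes and lysosomes that conducts sodium and calcium, rose from 4.35 ± 0.213 to 7.14 ± 0.346 FPKM (log2 fold change 0.78 ± 0.06). Hyal1, the lysosomal hyaluronidase, rose from 7.12 ± 0.303 to 10.7 ± 1.01 FPKM, Pcyox1, which breaks down prenylated cysteines, from 21.2 ± 0.503 to 27.4 ± 0.779, Sidt2 from 22.7 ± 0.695 to 28.9 ± 0.603 and the cathepsin Ctsf from 4.52 ± 0.337 to 5.58 ± 0.151. Slc15a3, a peptide and histidine transporter known from macrophages, went down from 2.03 ± 0.0788 to 1.16 ± 0.0285 FPKM. The changes of Tpcn1, Slc15a3 and Hyal1 were each larger in size than that of any of the 35 members. So was the fall of Naaa, named for its size alone, at -0.72 on the log2 scale (edgeR adjusted p = 0.00412).

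Acidification, sorting and control genes had calls in both directions, at shares near or below the 26.9% of all genes: 29.4% of the V-ATPase genes, 30.4% of the sorting genes and 14.3% of the TFEB and mTORC1 genes. Of 17 V-ATPase genes, 2 were higher and 3 lower (median -0.03). Atp6v0c and Atp6v0b, subunits of the membrane sector, had log2 fold changes of -0.31 and -0.26, Atp6ap1, an accessory subunit, fell by 0.16, and Atp6v0d2, an isoform of osteoclasts and macrophages, rose from 1.24 ± 0.170 to 2.15 ± 0.249 FPKM. Of 23 sorting genes, 4 were higher and 3 lower (median 0.09). Gnptab, which codes for the catalytic subunits of the enzyme that starts the mannose 6-phosphate tag, rose by 0.37 and Gnptg, which codes for its remaining subunit, fell by 0.55 on the log2 scale. Sort1, a sorting receptor, rose by 0.56 and Vps39, a tethering subunit, by 0.36.

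Of 21 genes of TFEB and mTORC1 control, 1 was higher and 2 were lower (median -0.02). Flcn, folliculin, a regulator of the Rag GTPases on lysosomes, went from 12.1 ± 0.473 to 6.67 ± 0.348 FPKM (log2 fold change -0.80 ± 0.06, edgeR adjusted p = 7.12e-05). Lamtor4, a Ragulator subunit, fell by 0.34 on the log2 scale and Rptor, the mTORC1 scaffold, rose by 0.28. Tfeb itself, named after its values were seen, was at 1.3, 1.41 and 1.23 FPKM in control and at 1.06, 1.12 and 1.04 FPKM in extract and did not pass (log2 fold change -0.23 ± 0.10, edgeR adjusted p = 0.124). Of 30 autophagy genes, 6 were higher and 4 lower (33.3% called, median 0.04). The receptors Nbr1 and Optn rose by 0.25 and 0.24, and the kinase Ulk1 and the LC3 relative Gabarap had log2 fold changes of -0.33 and -0.22. The deposited table prints the lysosome pathway term for 88 genes beside the members, of which 84 were tested, and 16 were higher and 19 lower, which is 41.7% called, against 26.9% of all genes and 37.8% of those at or above the level of the lowest member.

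**Figure D5:**
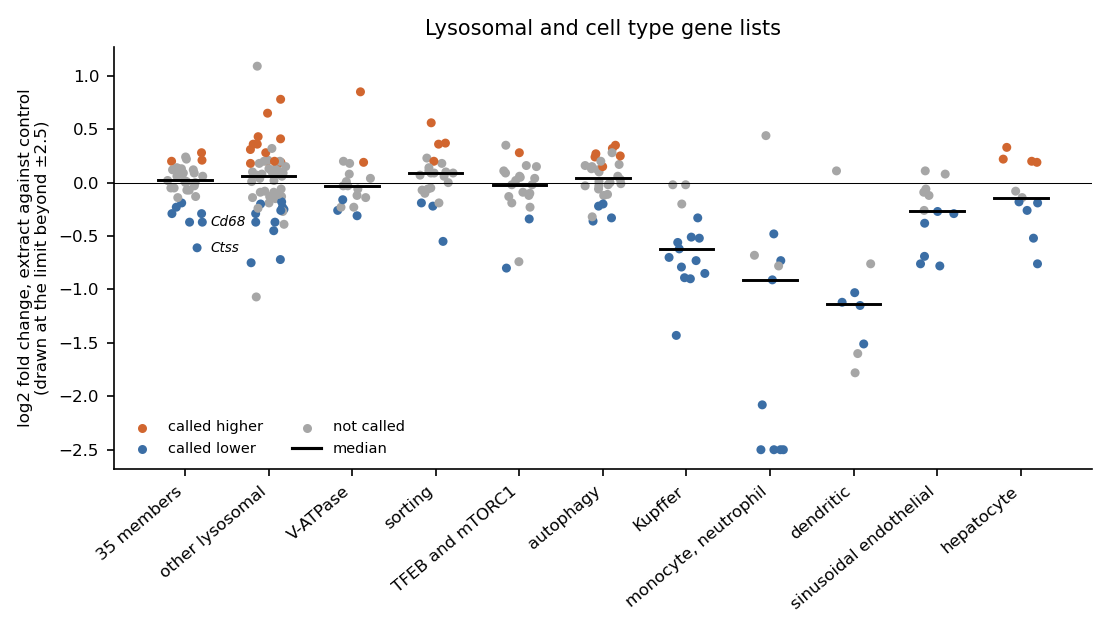
Log2 fold change of each gene (points, extract against control) in the lysosomal lists and in lists of cell type markers, with the median as a line and points beyond the limit drawn at it. The lysosomal lists have medians from -0.03 to 0.09, while that of the Kupffer markers is -0.62.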

How the data were processed

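The data are messenger RNA libraries captured on oligo(dT) beads from 3 control and 3 extract liver samples, per the labels' protocols. Tools listed without roles, per the submitters' processing notes, are StringTie 1.3.4d, HISAT2 2.0.4, cutadapt 1.9 and edgeR. The build, strand use and counting rules are not given in the sources used here. GENCODE M21 (GRCm38) holds 99.7% of the gene identifiers and all 35 members, 32 of them at the deposited coordinates, which are the ones printed. The deposited estimated counts are whole numbers, totalling 51219533 to 61432016 per library, and FPKM is as deposited by the authors. Another 6 columns match no sample and were not used. In R 4.3.3, edgeR 4.0.16 (filterByExpr, TMM factors, quasi-likelihood test, Benjamini-Hochberg, threshold 0.05, two-sided) was fitted to the whole table. The standard error is the log2 fold change divided by the root of F, and 95% intervals use the test's degrees of freedom. Alternatives used DESeq2 1.42.0, limma 3.58.1 on log2(FPKM + 0.5) other scalings and counts divided by 4 (low counts gather at 4), and each library was left out in turn. The fit was also run on simulated counts in which the changes were larger than that of any member. That run does not bear on calls of the members' size. The members, the lists and their roles were chosen with earlier results of these data known. Members given with every library's value are up to 8 called in each direction, Ctss, Cd68 and the 4 uncalled with the highest FPKM. From each other lysosomal list up to 4 genes with the smallest p are named, and up to 6 for the Kupffer and other lysosomal lists. The rule also covered the remaining cell marker lists, which are given here as counts and sums. Of these lists Cd74, H2-Ab1, Clec9a, Ccr2 and Sox9 alone are named, Ccr2 after its values were seen. A Kupffer marker that this rule names is not reported here. The replicate number was not used as a block in the main test.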

Additional observations from a re-analysis of the deposited data

How the results depend on the processing

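Across 19 alternatives, all 11 called members kept their direction, and Ctss, Ctsb, Ctsd and Arsa (4 of 11) passed under every alternative. The members called higher numbered 4, but 2 with limma on FPKM at each pseudocount, 1 without a filter on low FPKM values, 2 at a mean of at least 5 FPKM, and 2 to 7 with a library left out. Those called lower numbered 7, and 4 to 7 with a library left out. Over all genes, 2561 were higher and 2309 lower in the main test. With a library left out, 1776 to 2553 were higher and 1442 (without control 2) to 2153 lower, with 1461 without extract 2 and 1480 without extract 1. Without a filter on low FPKM values 1485 were higher, and at a mean of at least 5 FPKM 1089 were higher and 1371 lower. Of the calls, 52.6% were higher in the main test, 43.9% with upper-quartile factors, 42.8% with total counts only and 41.3% with limma on FPKM. With the replicate number as a block, 2 members were higher and 6 lower, without Ctsc, Ctsh and Lamp2 (adjusted p = 0.0743, 0.0844 and 0.0517 in edgeR), and over all genes 2044 and 1702 were called. Same-numbered libraries had deviations correlated at -0.117, -0.0282 and -0.0895, so no shared variation by number was seen. These values cannot show whether the samples were paired by design. The summed FPKM differed by -59.2, and by -16.0 with TMM factors. The ratio of Cd68 to Lamp1 and that of Ctss to Ctsl kept their direction under all 8 alternatives each.

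The direction of 8 uncalled members changed with the setting, none of them past the threshold. With upper-quartile factors and with total counts only, Ctsa and Laptm4a were at -0.04, Glb1 at -0.03, Psap at -0.02 and Tpp1 at -0.03 and -0.04. With limma on FPKM, over pseudocounts and filters, Ctsa was at -0.06 and -0.05, Laptm4a at -0.06, Glb1 at -0.04 and -0.03, Psap at -0.04, Tpp1 at -0.05 and Scarb2 at 0.00, and with TMM factors on FPKM Ctsa and Laptm4a were at -0.01 and Tpp1 at 0.00. With counts divided by 4, Ctsa and Laptm4a were at 0.00. With a library left out, Ctsa and Laptm4a ran from 0.00 to 0.02, Gla from -0.11 to 0.00, Glb1 from -0.04 to 0.09, Tpp1 from -0.02 to 0.06 and Cd63 from -0.18 to 0.10. The cause was not tested. For the 8 uncalled genes under 5 FPKM the intervals reach -0.46 and 0.50, against -0.17 and 0.41 for the other 16, but Mcoln1, at 4.30 FPKM the highest of the 8, has one of -0.20 to 0.06.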
